A study of Mus musculus with 4 samples.

Results

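Enteroendocrine cells are the hormone-secreting cells of the intestinal epithelium, and 10 genes that mark them were followed by symbol in a table of 22632 genes. All 10 had 1 row each. They comprise a pair of transcription factors (Neurog3 and Neurod1), a pair of secretory granule proteins (Chga and Chgb), 5 peptide precursors (Tac1, Gcg, Cck, Sct and Nts) and the serotonin-making enzyme Tph1. The members were picked by name and not by their values in these libraries, although results of these data were known when they were proposed.

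The RNA came from organoids of the mouse small intestine, mini-guts of epithelium grown in Matrigel with Egf, Noggin and R-spondin from whole isolated crypts, harvested 24 hours after seeding. The 4 groups had 1 library each. Yap-/- organoids were Yapfl/fl;VillinCre, so that both copies of Yap were deleted in the epithelium, where the Villin promoter drives Cre. Yap+/- organoids were Yap+/fl;VillinCre, with 1 copy deleted by the same Cre. In YapTg organoids doxycycline turns on a transgene for wild-type Yap through a Cre-driven reverse tetracycline transactivator, and they were grown with the drug (induced) or without it (uninduced). No culture had doxycycline without the transgene, the Cre behind the transactivator is not named in the labels, and animal numbers, ages and strains are not given in the labels. The Yap+/- and uninduced YapTg libraries serve as the references, and setting one against the other shows how far libraries with neither full loss nor induction lie apart.

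With 1 library a group, no difference has a replicate check and no p-value is given. Library totals solved from the deposited values lay between 44934170 and 75269003 reads, and 10530 to 10722 genes were at or above 1 RPKM (reads scaled by gene length and by library total). Yap1 itself went with the labels, at 3.35 RPKM in Yap-/- against 16.7 RPKM in Yap+/- organoids, and at 1039 RPKM in induced against 25.1 RPKM in uninduced YapTg organoids. Each ratio is given with a 95% interval from recovered reads, which covers counting error only and not the spread between cultures or libraries. It may be too narrow even for counting error, since PCR copies are not independent molecules. A gene was counted as higher or lower where RPKM + 1 differed by 2-fold or more and at least 1 of both libraries had 1 RPKM (the floor). The folds printed are plain RPKM ratios, without the added 1.

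Endocrine cells arise from secretory progenitors in the crypt. Atoh1 commits a cell to the secretory fate, Neurog3 is then switched on briefly in progenitors and is required for the endocrine lineage, and Neurod1 acts after it. Mature cells keep Chga and Chgb, which pack hormones into granules, and make hormones by subtype and by position along the gut. Both factors are basic helix-loop-helix proteins that bind E-boxes, DNA sites of the form CANNTG, and prefer the version CAGATG, or CATCTG on the other strand.

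RefSeq promoter sequence (GRCm38.p6) was at hand for all 10 genes, in 11 windows, because Tph1 has more than 1 start. The 250 bases before the start are shown for Neurog3, whose level differed most with induction, and for the 4 peptide genes whose windows hold CAGATG. They are written 5′ to 3′ on the strand of the gene, with CAGATG or CATCTG in capitals, and also CATTCC or GGAATG, the site bound by TEAD factors, the DNA-binding partners of YAP.
Neurog3, chr10:62132840-62133089, plus strand: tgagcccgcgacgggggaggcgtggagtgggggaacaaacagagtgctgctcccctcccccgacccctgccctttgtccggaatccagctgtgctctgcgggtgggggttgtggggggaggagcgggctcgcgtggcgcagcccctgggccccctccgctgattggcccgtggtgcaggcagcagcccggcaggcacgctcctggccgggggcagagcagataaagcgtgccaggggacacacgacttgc
Tac1, chr6:7554811-7555060, plus strand: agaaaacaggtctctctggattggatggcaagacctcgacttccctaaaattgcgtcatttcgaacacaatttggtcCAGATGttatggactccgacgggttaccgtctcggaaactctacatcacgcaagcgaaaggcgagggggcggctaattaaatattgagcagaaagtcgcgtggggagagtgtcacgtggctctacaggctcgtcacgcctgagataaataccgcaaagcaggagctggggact
Gcg, chr2:62483654-62483903, minus strand: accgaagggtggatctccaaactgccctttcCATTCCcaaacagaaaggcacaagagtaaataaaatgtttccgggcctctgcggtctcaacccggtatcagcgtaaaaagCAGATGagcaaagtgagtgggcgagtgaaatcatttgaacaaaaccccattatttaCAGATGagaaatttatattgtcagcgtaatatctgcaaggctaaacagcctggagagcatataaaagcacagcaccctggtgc
Cck, chr9:121495695-121495944, minus strand: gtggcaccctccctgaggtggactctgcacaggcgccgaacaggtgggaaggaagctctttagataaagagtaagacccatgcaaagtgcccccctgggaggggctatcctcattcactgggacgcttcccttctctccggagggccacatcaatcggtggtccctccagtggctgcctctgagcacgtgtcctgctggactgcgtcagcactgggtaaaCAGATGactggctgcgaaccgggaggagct
Sct, chr7:141279134-141279383, minus strand: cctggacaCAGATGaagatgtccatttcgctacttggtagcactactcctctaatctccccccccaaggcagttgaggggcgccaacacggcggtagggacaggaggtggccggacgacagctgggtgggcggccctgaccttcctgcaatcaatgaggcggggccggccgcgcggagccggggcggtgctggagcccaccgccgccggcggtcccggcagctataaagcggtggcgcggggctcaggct
The preferred E-box occurred in 4 of the 11 windows, both strands counted, and in 14.4% of the 32851 promoter windows of the table. Gcg held it at 139 and at 83 bases before the start, Tac1 at 173, Sct at 242 and Cck at 30. The TEAD site occurred in 2 of the 11 windows, those of Gcg (219 bases before the start) and 1 start of Tph1, against 12.6% of all windows. The 4 peptide genes with the E-box did not share 1 size of difference with induction, in which Gcg and Tac1 were past 2-fold and Cck and Sct were not. A match describes the letters only and is no evidence of binding.

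The 10 genes summed to 333 RPKM in Yap-/-, 282 RPKM in Yap+/-, 77.1 RPKM in induced YapTg and 158 RPKM in uninduced YapTg organoids, with Chgb making up between 36.7% and 39.7% of each sum. For 8 of the 10 genes the order of levels was Yap-/- highest, then Yap+/-, then uninduced and last induced YapTg. Tph1 had Yap+/- first, and Neurog3 had uninduced YapTg first. Within that order Yap+/- and uninduced YapTg did not differ beyond the counting interval for Gcg and Nts.

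Every member was lower in induced than in uninduced YapTg organoids, but by very different amounts. Induced organoids had 9.58-fold less Neurog3, 4.48-fold less Tac1 and 3.07-fold less Gcg than uninduced ones, whereas Cck and Sct were only 1.22-fold and 1.29-fold lower. Among the 9 members that reached 1 RPKM, 6 were past 2-fold on the lower side and 0 on the higher, and the median log2 ratio was -1.07. Over all 11108 genes at that floor, 54.5% were lower by any amount, and 5.8% were lower and 5.85% higher by 2-fold or more (median -0.04). Fewer endocrine cells and less of each transcript per cell cannot be told apart in these bulk libraries, and an effect of doxycycline cannot be told apart from one of YAP.

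**Figure D1:**
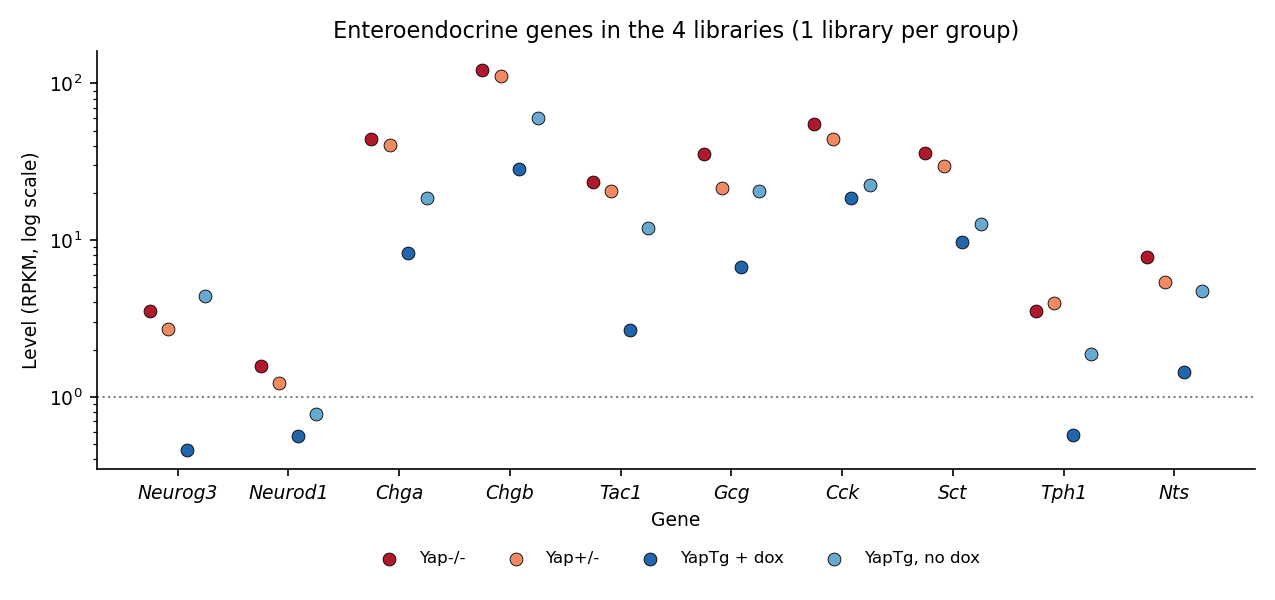
RPKM of the 10 genes (log axis) in each of the 4 libraries, 1 point per library, with the dotted line at 1 RPKM. The induced YapTg point is the lowest of the 4 for every gene, and only for Neurog3 is the uninduced YapTg point the highest.

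The progenitor factor Neurog3 stood at 0.457 RPKM (53 reads) in induced and 4.38 RPKM (303 reads) in uninduced YapTg organoids, 9.58-fold lower (95% interval 7.13 to 13.1). It was the largest difference among the members. Neurod1, which acts downstream of Neurog3, was at 0.560 RPKM (115 reads) in induced and 0.783 RPKM (96 reads) in uninduced organoids, 1.40-fold lower (95% interval 1.06 to 1.85). Both values lay under 1 RPKM, so Neurod1 could not be counted either way, and with the reads halved its interval included no difference. The pair of factors thus did not differ to a like extent with induction.

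The granule genes differed by nearly the same factor. Chga was at 8.26 RPKM in induced and 18.5 RPKM in uninduced organoids, 2.24-fold lower (95% interval 2.10 to 2.38). Chgb, the most abundant member in every library, was at 28.3 RPKM in induced and 60.2 RPKM in uninduced organoids, 2.13-fold lower (95% interval 2.06 to 2.20). Set against Chga in the same library, Chgb differed by a factor of 1.05 (95% interval 0.979 to 1.13), an interval that includes no difference.

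The 5 peptide genes lay on both sides of the 2-fold cut. Tac1, which encodes substance P and is made with serotonin in enterochromaffin cells, was at 2.66 RPKM in induced and 11.9 RPKM in uninduced organoids (4.48-fold lower, 95% interval 4.09 to 4.92). Gcg, the precursor of GLP-1 and GLP-2 in L cells, was at 6.71 RPKM in induced and 20.6 RPKM in uninduced organoids (3.07-fold lower, 2.81 to 3.36). Nts, the neurotensin precursor of the distal small intestine, was at 1.45 RPKM in induced and 4.73 RPKM in uninduced organoids (3.27-fold lower, 2.63 to 4.08). These 3 passed 2-fold. The other two kept most of their level. Cck, whose product drives gallbladder emptying, was at 18.4 RPKM in induced and 22.5 RPKM in uninduced organoids (1.22-fold lower, 1.15 to 1.30). Sct, which encodes secretin, the hormone of bicarbonate secretion, was at 9.73 RPKM in induced and 12.6 RPKM in uninduced organoids (1.29-fold lower, 1.11 to 1.51). Cck made up 47.3% of the summed RPKM of the 5 peptide genes in induced organoids and 31.1% in uninduced ones, and Tac1 made up 6.82% in induced and 16.5% in uninduced ones.

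Tph1, the rate-limiting enzyme of serotonin synthesis in enterochromaffin cells, was at 0.574 RPKM in induced and 1.87 RPKM in uninduced organoids, 3.26-fold lower (95% interval 2.84 to 3.74). Its log2 ratio of RPKM + 1 was -0.87, short of 2-fold because the added 1 weighs on so low a gene, and it was -1.55 with 0.1 added in place of 1.

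**Figure D2:**
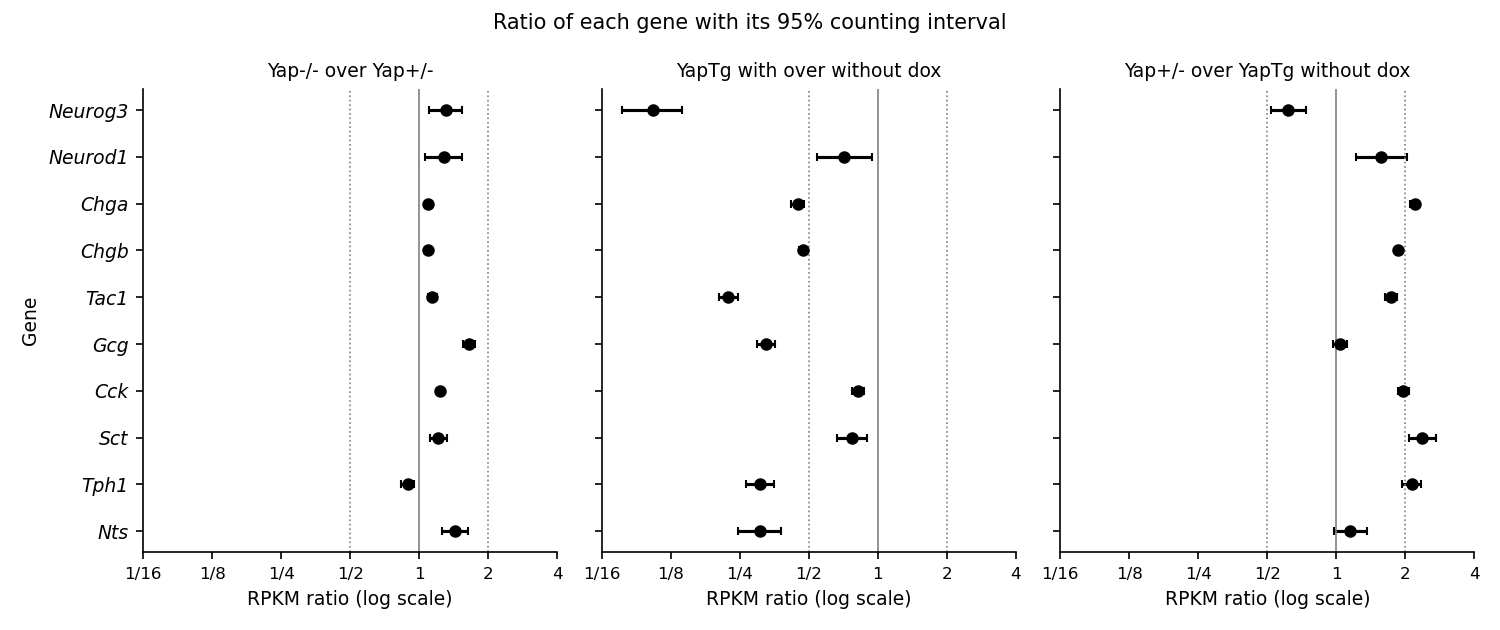
Ratio of RPKM (log axis) for each gene in the 3 comparisons, with points for the ratio and bars for the 95% counting interval; the solid line marks no difference and the dotted lines 2-fold. Neurog3 lies lowest under induction at 9.58-fold less, and in the pair of reference libraries it is the only gene on the lower side.

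Loss of Yap was accompanied by small differences, and mostly upward ones. Of the 10 members 9 were higher in Yap-/- than in Yap+/- organoids, with a median log2 ratio of 0.24, but 0 reached 2-fold in either direction. Over all 10710 genes at the floor, 65.5% were higher by any amount, and 0.336% were higher and 0.57% lower by 2-fold or more (median 0.05). Gcg differed most, at 35.4 RPKM in Yap-/- organoids, against 21.4 RPKM in Yap+/- organoids (1.65-fold higher, 95% interval 1.56 to 1.75). Nts followed at 7.79 RPKM in Yap-/- organoids, against 5.44 RPKM in Yap+/- organoids (1.43-fold higher, 1.26 to 1.63). Gcg and Nts were thus the members furthest apart in this pair.

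The other members differed less with loss. Neurog3 was at 3.53 RPKM in Yap-/- organoids, against 2.70 RPKM in Yap+/- organoids (1.31-fold higher, 95% interval 1.11 to 1.54). Neurod1 was at 1.57 RPKM in Yap-/- organoids, against 1.23 RPKM in Yap+/- organoids (1.28-fold higher, 1.06 to 1.54), and its interval from halved reads included no difference. Both factors were on the same side of their reference here. Cck was 1.24-fold, Sct 1.21-fold, Tac1 1.14-fold, and Chga and Chgb 1.09-fold higher in Yap-/- organoids. Tph1 alone was lower, at 3.55 RPKM in Yap-/- organoids, against 3.98 RPKM in Yap+/- organoids (1.12-fold, 95% interval 1.05 to 1.20). No replicate shows whether gaps of this size exceed the spread between cultures.

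By their median, these genes differed more between the reference libraries than between Yap-/- and Yap+/- organoids. Yap+/- organoids had more of 9 of the 10 members than uninduced YapTg organoids, with a median log2 ratio of 0.77, and 2 members, Sct and Chga, were at least 2-fold higher. Over all 10883 genes at the floor, 34.4% were higher by any amount, and 1.11% were higher and 0.726% lower by 2-fold or more (median -0.11). Sct was at 29.8 RPKM in Yap+/-, against 12.6 RPKM in uninduced organoids (2.37-fold higher, 95% interval 2.08 to 2.71). Chga was at 40.6 RPKM in Yap+/-, against 18.5 RPKM in uninduced organoids (2.20-fold higher, 2.09 to 2.30). Tph1 was 2.13-fold, Cck 1.96-fold, Chgb 1.86-fold, Tac1 1.73-fold and Neurod1 1.57-fold higher in Yap+/- organoids. In size, the folds of Sct, Cck and Neurod1 exceeded those with induction (1.29, 1.22 and 1.40), and that of Chga was nearly the same (2.24). For the other members the fold between the references was smaller than with induction. Tph1 was not counted as past 2-fold because of the 1 added to its low values. Median-ratio scaling moved every gene upward by 0.15 on the log2 scale in this pair, and Chgb and Cck then passed 2-fold as well. The split over all genes, 121 higher and 79 lower as deposited, became 173 higher and 60 lower.

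Neurog3, Gcg and Nts did not follow the other members in this pair. Neurog3 was lower, at 2.70 RPKM in Yap+/-, against 4.38 RPKM in uninduced organoids (1.62-fold, 95% interval 1.36 to 1.93), and it kept that sign under both other scalings. Gcg was at 21.4 RPKM in Yap+/-, against 20.6 RPKM in uninduced organoids, a ratio of 1.04 (0.970 to 1.12). Nts was at 5.44 RPKM in Yap+/-, against 4.73 RPKM in uninduced organoids, a ratio of 1.15 (0.976 to 1.36). The intervals of Gcg and Nts include no difference as deposited. The comparisons share libraries: Yap+/- serves as the reference in the loss pair and is compared again here, and uninduced YapTg is the reference in 2 of the 3.

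Relative to Chga, the general endocrine marker, Neurog3 set the uninduced YapTg library apart from the other three. Per 100 RPKM of Chga there were 7.95 RPKM of Neurog3 in Yap-/-, 6.66 in Yap+/-, 5.54 in induced YapTg and 23.7 in uninduced YapTg organoids. Neurog3 was 4.28-fold (95% interval 3.16 to 5.88) lower relative to Chga in induced than in uninduced organoids, and 3.56-fold (95% interval 2.97 to 4.26) lower in Yap+/- than in uninduced organoids. The low proportion of Neurog3 to Chga was therefore present in a library without induction too. Neurod1 showed another order, at 3.54 RPKM per 100 RPKM of Chga in Yap-/-, 3.03 in Yap+/-, 6.78 in induced and 4.23 in uninduced organoids. The difference between induced and uninduced organoids in Neurod1 relative to Chga was a factor of 1.60 (95% interval 1.20 to 2.14).

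The peptide genes also shifted against Chga with induction. Cck was at 223 RPKM per 100 RPKM of Chga in induced and 122 in uninduced organoids, 1.83-fold higher (95% interval 1.68 to 2.00). Sct was at 118 in induced and 68.1 in uninduced organoids on the same measure, 1.73-fold higher (1.47 to 2.04). Tac1 went the other way, at 32.2 in induced and 64.5 in uninduced organoids. The mix of hormone transcripts, and not only their sum, therefore differed between the induced and uninduced libraries. The mix differed between the reference libraries too. Relative to Chga, Gcg was 2.11-fold (95% interval 1.94 to 2.30) and Nts 1.91-fold (1.61 to 2.27) lower in Yap+/- than in uninduced organoids. In induced organoids they were 1.37-fold and 1.46-fold lower than in uninduced ones. Cck, Sct and Tac1 shifted less against Chga between the references than with induction. In Yap-/- organoids Gcg was at 79.7 RPKM per 100 RPKM of Chga, against 52.8 in Yap+/- organoids. It was at 81.2 in induced and 111 in uninduced YapTg organoids.

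**Figure D3:**
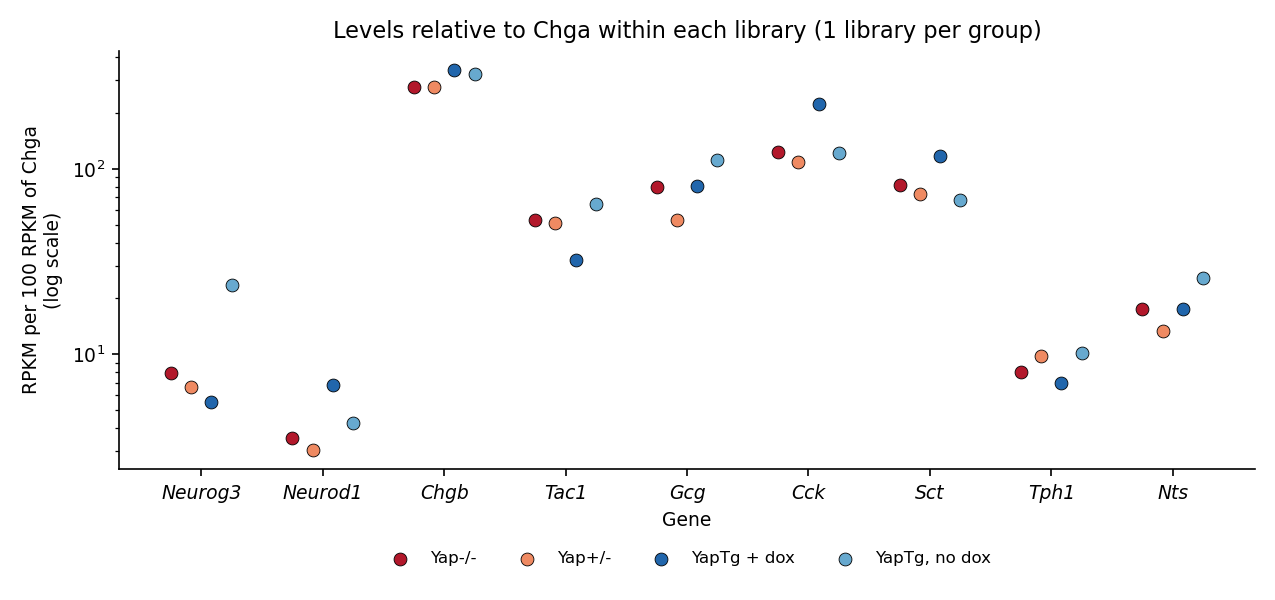
RPKM of 9 genes per 100 RPKM of Chga (log axis) in each library, 1 point per library. The uninduced YapTg library stands at 23.7 for Neurog3 while the other three lie between 5.54 and 7.95, and the induced library is highest for Cck, Sct, Neurod1 and Chgb.

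Other endocrine transcription factors were mostly scarce. Of 22 listed factors 21 were used, and 6 reached 1 RPKM in the induced or uninduced library, of which 3 were at least 2-fold lower and 0 higher with induction (median log2 ratio -0.89). Besides Neurog3 these were Foxa2, a forkhead factor of gut endoderm, at 1.18 RPKM in induced and 3.74 RPKM in uninduced organoids, and Mnx1. Foxa1, its relative, was the exception at 22.1 RPKM in induced and 11.3 RPKM in uninduced organoids (1.95-fold higher, 95% interval 1.85 to 2.07). Fev, a serotonin-lineage factor, was at 0.164 RPKM in induced and 0.840 RPKM in uninduced organoids, and Pax4, which acts early after Neurog3, at 0.0679 RPKM in induced and 0.520 RPKM in uninduced ones. Insm1, a zinc-finger factor of endocrine differentiation, was at 0.841 RPKM in induced and 2.06 RPKM in uninduced organoids. With loss of Yap 8 factors reached the floor and 0 passed 2-fold (median 0.16), and between the reference libraries 0 of 8 did (median -0.21). Mnx1, Foxa1, Fev, Pax4 and Insm1 were named after their values were seen.

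Among 19 listed hormones and related genes, 9 reached the floor in the induced pair, and 4 were at least 2-fold lower and 0 higher (median log2 ratio -0.81). Gip, the incretin of K cells, joined Tac1, Gcg and Nts, at 23.2 RPKM in induced and 69.3 RPKM in uninduced organoids (2.98-fold lower, 95% interval 2.78 to 3.20). Ghrl, the ghrelin precursor, was at 11.2 RPKM in induced and 17.0 RPKM in uninduced organoids (1.52-fold lower). Sst, the somatostatin precursor, was at 11.4 RPKM in induced and 20.7 RPKM in uninduced ones (1.81-fold lower). Both were short of 2-fold, with folds between those of Sct and Gip. Between the reference libraries Ghrl was the furthest apart of this list in log2 of RPKM + 1, at 40.4 RPKM in Yap+/-, against 17.0 RPKM in uninduced organoids (2.37-fold higher), while Gip was at 75.3 RPKM in Yap+/-, against 69.3 RPKM in uninduced organoids. Pyy, another listed hormone, was unlike Gcg and Nts between the references. It was at 2.51 RPKM (82 reads) in Yap+/-, against 0.929 RPKM (24 reads) in uninduced organoids (2.70-fold higher, 95% interval 1.69 to 4.45). Ghrl in the induced pair, Sst and Pyy were named after their values were seen. The list medians were 0.26 with loss of Yap and 0.75 between the reference libraries, with 0 and 2 of 12 members past 2-fold.

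Granule and processing genes were less uniform than Chga and Chgb. Of 24 listed genes 12 reached the floor with induction, 3 at least 2-fold lower and 1 higher (median log2 ratio -0.45). Ptprn2, a phosphatase-like protein of granule membranes, was the third lower gene, at 1.03 RPKM in induced and 3.56 RPKM in uninduced organoids. Pam, the enzyme that amidates peptide hormones, was the higher one, at 6.49 RPKM in induced and 1.80 RPKM in uninduced organoids (3.60-fold, 95% interval 3.31 to 3.92). Median log2 ratios of the list were 0.13 with loss of Yap and 0.29 between the reference libraries, with 0 of 15 and 1 of 14 past 2-fold, the 1 being Chga.

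Several serotonin genes other than Tph1 are also used by other epithelial cells. Of 10 listed genes, all at the floor, 3 were at least 2-fold lower and 1 higher with induction (median log2 ratio -0.74). Maob, which breaks down amines, was at 8.86 RPKM in induced and 41.9 RPKM in uninduced organoids, and the serotonin transporter gene Slc6a4 at 2.58 RPKM in induced and 10.1 RPKM in uninduced ones. With loss of Yap and between the reference libraries 0 of 10 passed 2-fold, with medians of 0.11 and 0.36.

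Most listed genes of the secretory switch and of Notch signalling were lower in the induced library as well. Of 11 secretory switch and Notch genes, 6 were at least 2-fold lower and 0 higher (median log2 ratio -1.06). By any amount 10 were lower and 1 higher. The higher one was Notch2, named after its values were seen, at 3.97 RPKM in induced and 2.06 RPKM in uninduced organoids (1.93-fold, 95% interval 1.80 to 2.08). Atoh1 was at 1.04 RPKM in induced and 7.23 RPKM in uninduced organoids (6.93-fold lower, 95% interval 5.83 to 8.26), and the secretory factor Spdef at 1.13 RPKM in induced and 7.73 RPKM in uninduced organoids. With loss of Yap 11 of 11 were on the higher side, as were 65.5% of all genes at the floor, and 0 passed 2-fold (median 0.18), and between the reference libraries the median was -0.28 with 0 past 2-fold. Atoh1 was at 5.43 RPKM in Yap+/-, against 7.23 RPKM in uninduced organoids. In that pair 10 of the 11 listed genes, Neurog3 and 7137 of all 10883 genes at the floor were on the lower side.

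Other epithelial lineages moved beside the endocrine genes with induction, and their part in the endocrine values was not tested. Of the markers at the floor, 9 of 10 goblet, 6 of 10 enterocyte, 5 of 8 stem cell, 2 of 8 Paneth and 0 of 3 tuft genes were at least 2-fold lower. The medians were -1.93, -1.88, -1.47, -0.71 and -0.34 in that order, beside -1.07 for the members. Summed goblet markers stood at 699 RPKM in induced and 2726 RPKM in uninduced organoids, and summed enterocyte markers at 1546 RPKM in induced and 4660 RPKM in uninduced ones. Chga, Chgb and Tac1 are also made by neurons, and a part of such cells in these values was not tested. Of 14 enteric neuron and glia markers 0 reached 1 RPKM in any library. Their sum lay between 0.478 and 1.70 RPKM, and Nos1 and Sox10 were at 0 in 3 and 4 of the 4 libraries. Ret, named after its values were seen, was at 0.716 RPKM in Yap-/-, 0.483 in Yap+/-, 0.125 in induced and 0.400 in uninduced organoids.

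**Figure D4:**
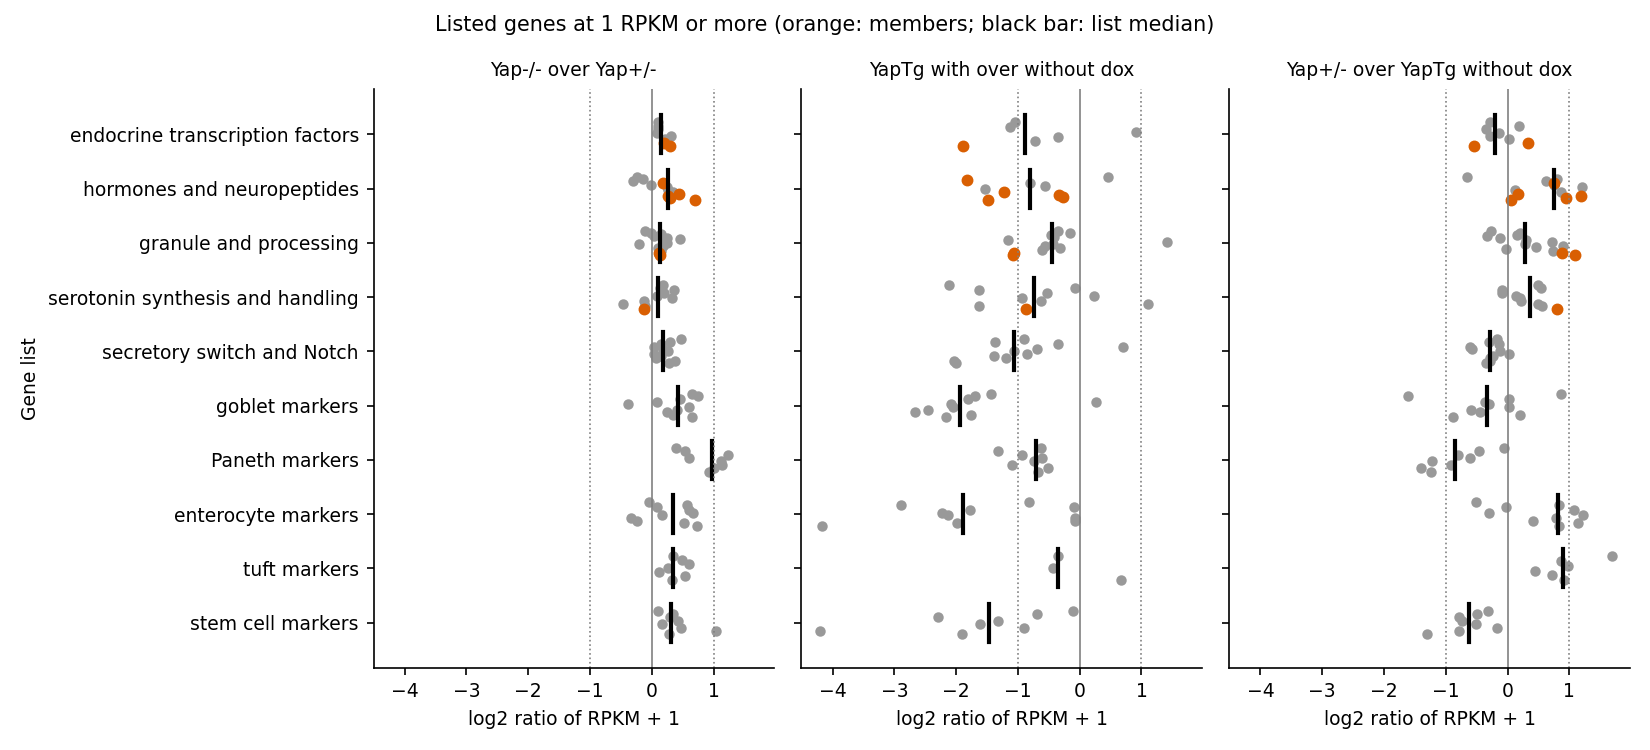
Log2 ratio of RPKM + 1 for the listed genes at 1 RPKM or more in the 3 comparisons; each point is a gene, orange for the members, and the black bar is the list median. Of the 10 lists drawn, the upper 4 (factors, hormones, granule and serotonin genes) have medians between -0.89 and -0.45 under induction. Goblet markers stand at -1.93 there. With loss of Yap the drawn medians lie between 0.11 and 0.43 except for Paneth markers at 0.97.

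With the members left out, the genes with the pattern most like Neurog3 across the 4 libraries were Creb3l1, Ano7 and Agr2. Their Euclidean distances were 0.17, 0.18 and 0.23 on centred log2 values among 11285 genes. Agr2 was at 184 RPKM in Yap-/-, 155 in Yap+/-, 32.2 in induced and 210.1 in uninduced YapTg organoids. The genes most like Chga were Cyp2c65, Retsat and Creb3l3, at distances of 0.07, 0.16 and 0.16. Cyp2c65 was at 153 RPKM in Yap-/-, 145 in Yap+/-, 30.5 in induced and 66.2 in uninduced organoids. Members were left out of both searches by rule, and with 4 libraries many genes can share a pattern.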

How the data were processed

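RNA was sequenced from 4 organoid cultures, 1 per group, taken from the genotype and source labels. Per the labels, column-purified total RNA was made into libraries with an Illumina TruSeq kit. Build mm9 and the tools CASAVA 1.8, TopHat 1.4.1 and FastQC come from the submitters' processing notes. How reads were counted, on which annotation and with which filters is not given in the sources used here. No header names a unit: the deposited values were taken as RPKM from their form, and 0 value columns were left unused. Library totals were solved from GENCODE M21 (GRCm38) gene lengths: with the right total, between 45.7% and 46.5% of low genes gave whole reads (within 0.01) at their annotated length. Reads of each named gene were then recovered with the whole length nearest to that annotation that makes all 4 values whole (within 0.005). Of the 10 members 3 kept the annotated length. Between 8 and 56 lengths fitted each member, and a shorter length would give fewer reads, so the printed intervals may be too narrow. Among genes with up to 20 reads, 63.7% to 66.9% had an even number, so both ends of a pair may have been counted, and intervals from halved reads were added after seeing the data. Intervals are exact conditional binomial (Clopper-Pearson), and relative to Chga exact conditional odds ratios.

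No test was possible with 1 library a group. The members and the 15 gene lists were chosen with earlier results of these data known. Named genes are the members, the 2 genes of a list furthest from 0, and the 3 non-member genes nearest to Neurog3 and to Chga. Listed symbols without a single matching row were not used. Alternatives were other pseudocounts, floors, scalings and folds. Python 3.11.15, numpy 2.4.6, pandas 2.3.3 and scipy 1.17.1 were used, and the steps were tested on simulated data.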

Additional observations from a re-analysis of the deposited data

How the results depend on the processing

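All 10 members kept their sign in each of the 3 comparisons under pseudocounts of 0.1 and 5 and both other scalings. Members past the threshold with induction numbered 6 as reported, 2 with a pseudocount of 5, 0 at 4-fold and 10 where the counting interval had to exclude 1. The 4-fold setting was applied to RPKM + 1. On that scale the log2 ratio was -1.88 for Neurog3 and -1.82 for Tac1, whose plain RPKM folds were 9.58 and 4.48. With loss of Yap there were 0 as reported, 10 by the counting interval and 9 by the interval from halved reads. Between the reference libraries there were 2 as reported, 0 with a pseudocount of 5, 4 with median-ratio scaling, 0 at 4-fold, and 8 by either counting interval. Over all genes above 0 in both libraries, the counting interval excluded 1 for 72.7% with induction, 49.6% with loss of Yap and 65.9% between the references, with reads taken at the annotated length. The counts over all genes were 97 with loss of Yap (178 with a pseudocount of 0.1, 39 with 5, 9 at 4-fold), 1294 with induction (673 with a pseudocount of 5, 312 at 4-fold) and 200 between the references (411 with 0.1, 99 with 5, 35 at 4-fold). A larger pseudocount shrinks ratios of low genes by construction. Of the list medians recomputed, 61 moved beyond the median counting interval of their genes and 106 did not. No paired analysis was possible because each group has 1 library. Depth limits Neurog3 in induced organoids most, at 53 reads.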

Other observations

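Genes by which endocrine cells sense nutrients were mostly low, and 3 of them reached 1 RPKM in Yap-/- or Yap+/- organoids. Of 14 such genes with a row, 1 reached 1 RPKM in the induced or uninduced library, O3far1, a long-chain fatty acid receptor, at 1.56 RPKM in induced and 1.12 RPKM in uninduced organoids. Trpa1, an irritant channel of enterochromaffin cells, was at 0.125 RPKM in induced and 0.684 RPKM in uninduced organoids, and at 1.73 RPKM in Yap+/- organoids. Ffar3, a short-chain fatty acid receptor, was at 1.54 RPKM in Yap-/-, 0.951 in Yap+/-, 0.114 in induced and 0.205 in uninduced organoids. Trpa1 and the YapTg values of Ffar3 were named after they were seen.

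Genes that mark position along the small intestine also differed between the libraries, and their part in the hormone values was not tested. The ileal bile acid carrier gene Fabp6 was at 5.77 RPKM in Yap-/-, 12.7 in Yap+/-, 3.13 in induced and 86.7 in uninduced YapTg organoids. Of 5 distal genes 2 were at least 2-fold lower in Yap+/- than in uninduced organoids and 0 higher, and of 6 proximal genes 0 were lower and 2 higher. With induction 2 of 5 distal and 3 of 6 proximal genes were at least 2-fold lower. With loss of Yap 1 of 5 distal genes was at least 2-fold higher and 1 lower (median log2 ratio -0.36). Of the 6 proximal genes 0 were higher and 2 lower in that pair (median -0.13). Of 9 stromal and immune markers 2 reached the floor with induction, Vim and Lyz2, and 1 of them, Vim, was at least 2-fold lower.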
